A study of Mus musculus with 18 samples.

Results

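Aminoacyl-tRNA synthetases are the enzymes that join each amino acid to its transfer RNA (tRNA). The 36 genes described here are all the members of a named list of 20 cytosolic and 16 mitochondrial synthetase genes, each found by its symbol among the 16248 genes of the expression table. All 36 were expressed highly enough to be tested. Their choice used no measured value of these libraries, although the list was drawn up with earlier results of these data known. Tarsl2, a further synthetase gene in the table, was not on the list.

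The libraries were bulk RNA sequencing of endothelial cells (ECs), the cells lining blood vessels, from adult female mice of the FVB strain. ECs of 3 tissues were taken 3 h after an injection. The injection was phosphate-buffered saline (PBS) as the control or the STING agonist cGAMP (cyclic GMP-AMP), which the study's methods give as its 3'3' form. Each of the 6 groups had 3 libraries, 18 in all. The study asked why tumour ECs of implanted and of spontaneous breast tumours respond differently to this agonist. Normal ECs were those of the mammary fat pad in wild type mice. MMTV-PyMT ECs came from spontaneous breast tumours of MMTV-PyMT mice, in which a viral promoter that is active mainly in mammary epithelium drives the polyoma middle T oncogene. Implanted ECs came from tumours that grew in the fat pad of wild type hosts after tumour cells of MMTV-PyMT mice had been cultured briefly and injected. The labels give these implanted samples as wild type, which describes the host and its vessels and not the tumour cells. ECs were enriched on CD31 beads and sorted as live cells without CD45 and with CD31. The groups are given as 3 mice each from 3 independent experiments. The experiment of each library was not stated, and p-values measure the spread between these libraries.

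Cytosolic synthetases charge tRNAs for the ribosomes that make most cell proteins, and a separate set, encoded in the nucleus, charges tRNAs inside mitochondria. Several cytosolic members are held together in the multi-synthetase complex. Many cytosolic members are reported targets of ATF4, the transcription factor of the amino acid (integrated stress) response, and Wars, tryptophanyl-tRNA synthetase, is also a classic target of interferon gamma. Kars and Gars encode the cytosolic as well as the mitochondrial enzyme.

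Values are FPKM, read fragments per kilobase of gene scaled for library depth. Levels of different genes can be set side by side only roughly, since the length sums all annotated exons of a gene, 18102 bases for Eprs. Aars also shares 14.3% of its exon length with Exosc6 on the same strand. Whole reads recovered from them numbered 9184658 to 12200551 per library. The table was scaled to a common median gene, and its denominators were 0.735 to 1.15 times the recovered reads, lowest in the 3 implanted cGAMP libraries. Differences are on the log2(FPKM + 1) scale, with the standard error (SE) of the fit, and they understate the change of genes with low values. Past the threshold means an adjusted p under 0.05 in limma over 13983 tested genes, with no limit on the fold. The endothelial genes Pecam1 and Cdh5 had group means of 156 to 304 and of 291 to 590 FPKM. Ptprc, which encodes CD45, lay between 0.156 and 9.73 FPKM. The summed level of 7 leukocyte markers, Ptprc among them, lay between 67.6 and 320 FPKM. It was 117, 320 and 135 FPKM in the implanted cGAMP libraries. Its group means under PBS and cGAMP were 83.3 and 100 in normal, 90.1 and 129 in MMTV-PyMT, and 131 and 190 in implanted ECs. The part of leukocyte RNA in the synthetase changes was not tested. The summed level of 8 epithelial markers lay between 258 and 1012 FPKM in every library, so epithelial RNA was present in all of them. Fewer cells of a type and less RNA per cell cannot be told apart in such bulk samples.

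Wars was the synthetase gene that varied most, and it was the most abundant of the 36 in the normal and implanted groups. Its FPKM was 35.0, 32.7 and 36.7 in normal ECs under PBS and 56.9, 52.7 and 50.6 under cGAMP. In MMTV-PyMT ECs it was 17.2, 18.1 and 16.03 under PBS and 21.1, 27.0 and 27.3 under cGAMP. In implanted ECs it was 66.5, 54.9 and 57.3 under PBS and 242, 136 and 153 under cGAMP. Within each tissue, all cGAMP libraries lay above all PBS libraries, and no library of an MMTV-PyMT tumour reached the lowest library of the other tissues. The group means spanned 10.3-fold, from 17.1 ± 1.05 (SD, n = 3) in MMTV-PyMT ECs under PBS to 177 ± 57.3 in implanted ECs under cGAMP. Wars ranked 1 of 36 in normal and implanted ECs with either injection, and ranked 10 under PBS and 5 under cGAMP in MMTV-PyMT ECs. It held 5.04% ± 0.285 of the summed cytosolic synthetase FPKM in MMTV-PyMT ECs under PBS, 13.9% ± 0.861 in normal ECs and 17.4% ± 1.07 in implanted ECs, and this share was 34.6% ± 7.38 in implanted ECs under cGAMP. Its mitochondrial counterpart Wars2 varied least of the family, with group means of 2.08 to 2.57 FPKM.

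**Figure D1:**
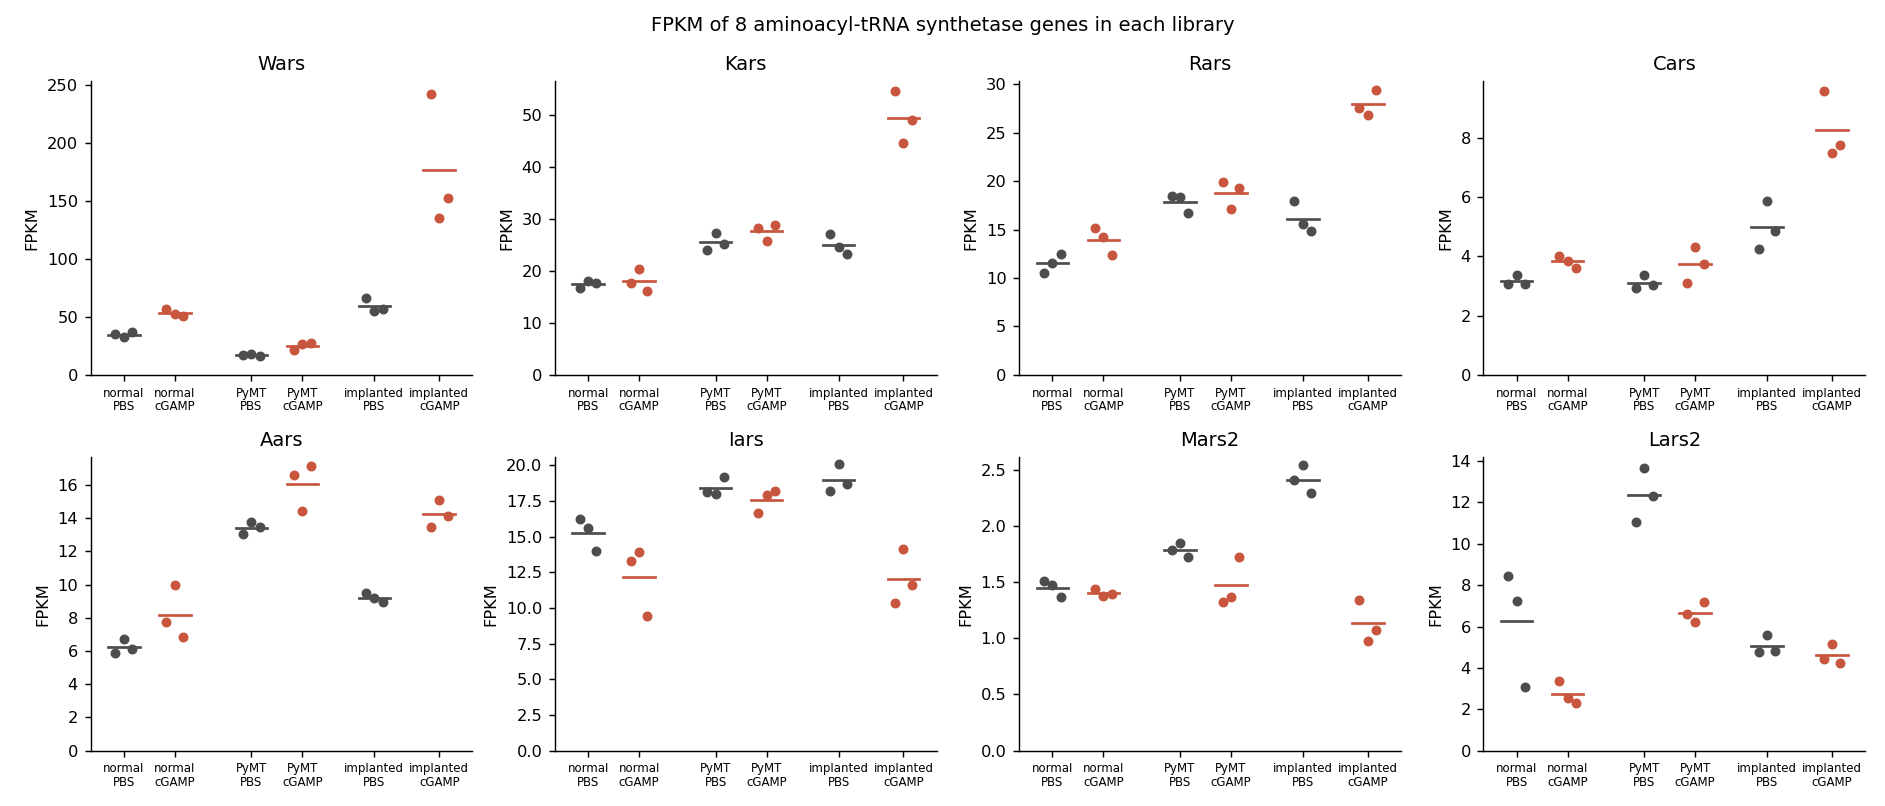
FPKM (y axis, linear, from 0) of 8 synthetase genes in each library, by tissue and injection (x axis); points are libraries and bars are means of 3. Wars, Kars, Rars and Cars were highest in the 3 implanted cGAMP libraries, Mars2 was highest under PBS in implanted ECs, and Lars2 was highest under PBS in MMTV-PyMT ECs.

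In implanted ECs, cGAMP raised 9 of the 36 synthetase genes and lowered 5. The rises were led by the cytosolic enzymes for tryptophan, lysine, arginine, cysteine and alanine, and 3 of the 5 falls were mitochondrial enzymes. The background in the same comparison was 20.3% of all tested genes higher and 18.8% lower, against 25.0% and 13.9% of the members, so the overall share was near that of other genes. Wars rose by 1.51 on the log2 scale (SE 0.16, adjusted p = 1.68e-06) and was the only member that changed at least 2-fold on that scale, where 6.13% of tested genes rose and 1.09% fell by as much.

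Kars, lysyl-tRNA synthetase of the multi-synthetase complex, had 27.1, 24.6 and 23.2 FPKM under PBS and 54.6, 44.6 and 49.1 under cGAMP in implanted ECs. Rars, the arginyl enzyme of the same complex, had 17.9, 15.6 and 14.8 FPKM and then 27.6, 26.8 and 29.4. In both genes the lowest cGAMP library lay well above the highest PBS library. Kars rose by 0.96 (SE 0.09, adjusted p = 6.83e-07) and Rars by 0.76 (SE 0.09, adjusted p = 8.31e-06). Cars, the cysteinyl enzyme, went from 4.23, 5.85 and 4.86 FPKM to 9.57, 7.49 and 7.74, a rise of 0.63 (SE 0.12, adjusted p = 0.000433). Aars, the alanyl enzyme, went from 9.47, 9.20 and 8.94 FPKM to 13.5, 15.1 and 14.1, a rise of 0.58 (SE 0.10, adjusted p = 0.000326). The cGAMP libraries of these genes also stood apart from the PBS libraries.

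The remaining rises were small. Farsa, the catalytic subunit of the phenylalanyl enzyme, rose by 0.33 (adjusted p = 0.00892) and Tars2, the mitochondrial threonyl enzyme, by 0.28 (adjusted p = 0.0381). By total reads these were 0.044 (adjusted p = 0.690) and 0.026 (adjusted p = 0.842), and both calls were also lost when only the libraries compared were fitted. Nars, for asparagine, changed by 0.24 (adjusted p = 0.0377) and Hars, for histidine, by 0.23 (adjusted p = 0.0457), but by total reads they turned to -0.065 and -0.071, and Nars turned to -0.073 with quantile normalization. The PBS and cGAMP libraries of Hars and of Tars2 overlapped.

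Iars, isoleucyl-tRNA synthetase of the multi-synthetase complex, moved the other way, from 18.2, 20.1 and 18.7 FPKM under PBS to 10.3, 14.1 and 11.6 under cGAMP in implanted ECs. Mars2, the mitochondrial methionyl enzyme, went from 2.41, 2.54 and 2.29 FPKM to 1.34, 0.979 and 1.08. No library overlapped between the injections for either gene. Mars2 fell by 0.68 (SE 0.09, adjusted p = 1.96e-05) and Iars by 0.63 (SE 0.12, adjusted p = 0.000701). Ears2, the mitochondrial glutamyl enzyme, fell by 0.55 (adjusted p = 0.0139), Pars2, the mitochondrial prolyl enzyme, by 0.47 (adjusted p = 0.0152) and Tars, the cytosolic threonyl enzyme, by 0.25 (adjusted p = 0.0210). Ears2 and Pars2 had few reads, down to 7 and 5 in a library.

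Wars lies on chromosome 12 (mm10, GENCODE M21, positions 108860030 to 108894174, minus strand), and Kars (111993443 to 112011323, minus strand) and Aars (111033144 to 111057664, plus strand) lie on chromosome 8. Promoter windows from RefSeq (GRCm38.p6, 250 bases before to 50 after the start) were matched for 27 of the 36 members, with 28 windows. Cars, Hars, Lars, Nars, Rars, Vars, Wars, Hars2 and Pars2 had no entry. Each window was searched on both strands for an interferon-stimulated response element-like motif (GAAA, any 2 bases, GAAA), for TTCNNNGAA, like a STAT site (GAS), and for TGATGNAA, like an ATF4 element. They were present in 3.57%, 10.7% and 17.9% of the member windows and in 3.44%, 8.30% and 3.97% of all 32851 windows. Gars, Iars, Tars and Yars, on the list of reported ATF4 targets, were among the 5 members with an ATF4-like match. Aars also had ATF4-like matches, which began 112 bases before and 9 bases after its RefSeq start, besides a STAT-like match. The following stretches of 30 bases, written 5′ to 3′ on the strand of the gene, show, in capitals, matches in genes that the cGAMP and tumour results name most.
Aars, STAT-like, chr8:111033744-111033773: cccaggagccTTCCCAGAAaccggcttgtt
Kars, STAT-like, chr8:112011344-112011373: cccgccctctTTCCCGGAAgaggcaggact
Qars, interferon element-like, chr9:108507796-108507825: tgctaaacacTTTCCCTTTCcacgcccatg
Iars, ATF4-like, chr13:49682126-49682155: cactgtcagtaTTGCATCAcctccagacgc
Tars, ATF4-like, chr15:11399655-11399684: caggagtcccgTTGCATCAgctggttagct
The STAT-like match of Aars began 88 bases before the RefSeq start and that of Kars 9 bases before its RefSeq start. The Aars window, 111033592 to 111033891, lies inside the GENCODE gene, which starts further upstream at 111033144. A match of letters is a description and does not show that a factor binds.

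The first implanted cGAMP library stood apart. Its Wars level was the highest of all 18 libraries, its summed level of 8 endothelial markers was 1691 FPKM against 1031 and 1238 in the other two, and its summed level of epithelial markers was 258 FPKM against 558 and 477. Without it Wars still rose, by 1.26 (adjusted p = 5.13e-07), and Kars, Rars, Cars, Aars, Farsa and Hars also stayed past the threshold, as did Iars and Mars2. Without it the call was lost for Nars (0.22, adjusted p = 0.0998), Tars (-0.23, adjusted p = 0.0644), Ears2 (-0.29, adjusted p = 0.0615), Pars2 (-0.37, adjusted p = 0.0747) and Tars2 (0.22, adjusted p = 0.144), and the count fell from 14 to 9. Hars, Nars, Tars and Tars2 also lost their call when other single libraries were left out. The 8 fibroblast and mural cell markers, which a CD31 sort should remove, had a summed level of 773, 757 and 350 FPKM in the 3 implanted cGAMP libraries and 389 to 400 FPKM under PBS. Of the 8 markers, 3 rose, against 20.3% of all tested genes. The part of these other cells in the synthetase changes was not tested.

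The scaling of the libraries mattered most in implanted ECs. With scaling by total reads, the median change of all tested genes under cGAMP there was -0.25 on the log2 scale, against -0.01 as deposited, and 5 members were then higher and 20 lower, against 9 and 5, and 7 were higher and 6 lower with quantile normalization. Wars (1.20), Kars (0.64), Rars (0.45), Cars (0.35) and Aars (0.28) still rose. The median of the 20 cytosolic members was 0.16 as deposited, but -0.14 by total reads and -0.12 with quantile normalization, so that no direction can be given for the cytosolic set as a whole. The median of the 16 mitochondrial members was -0.16 as deposited and -0.38 by total reads.

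**Figure D2:**
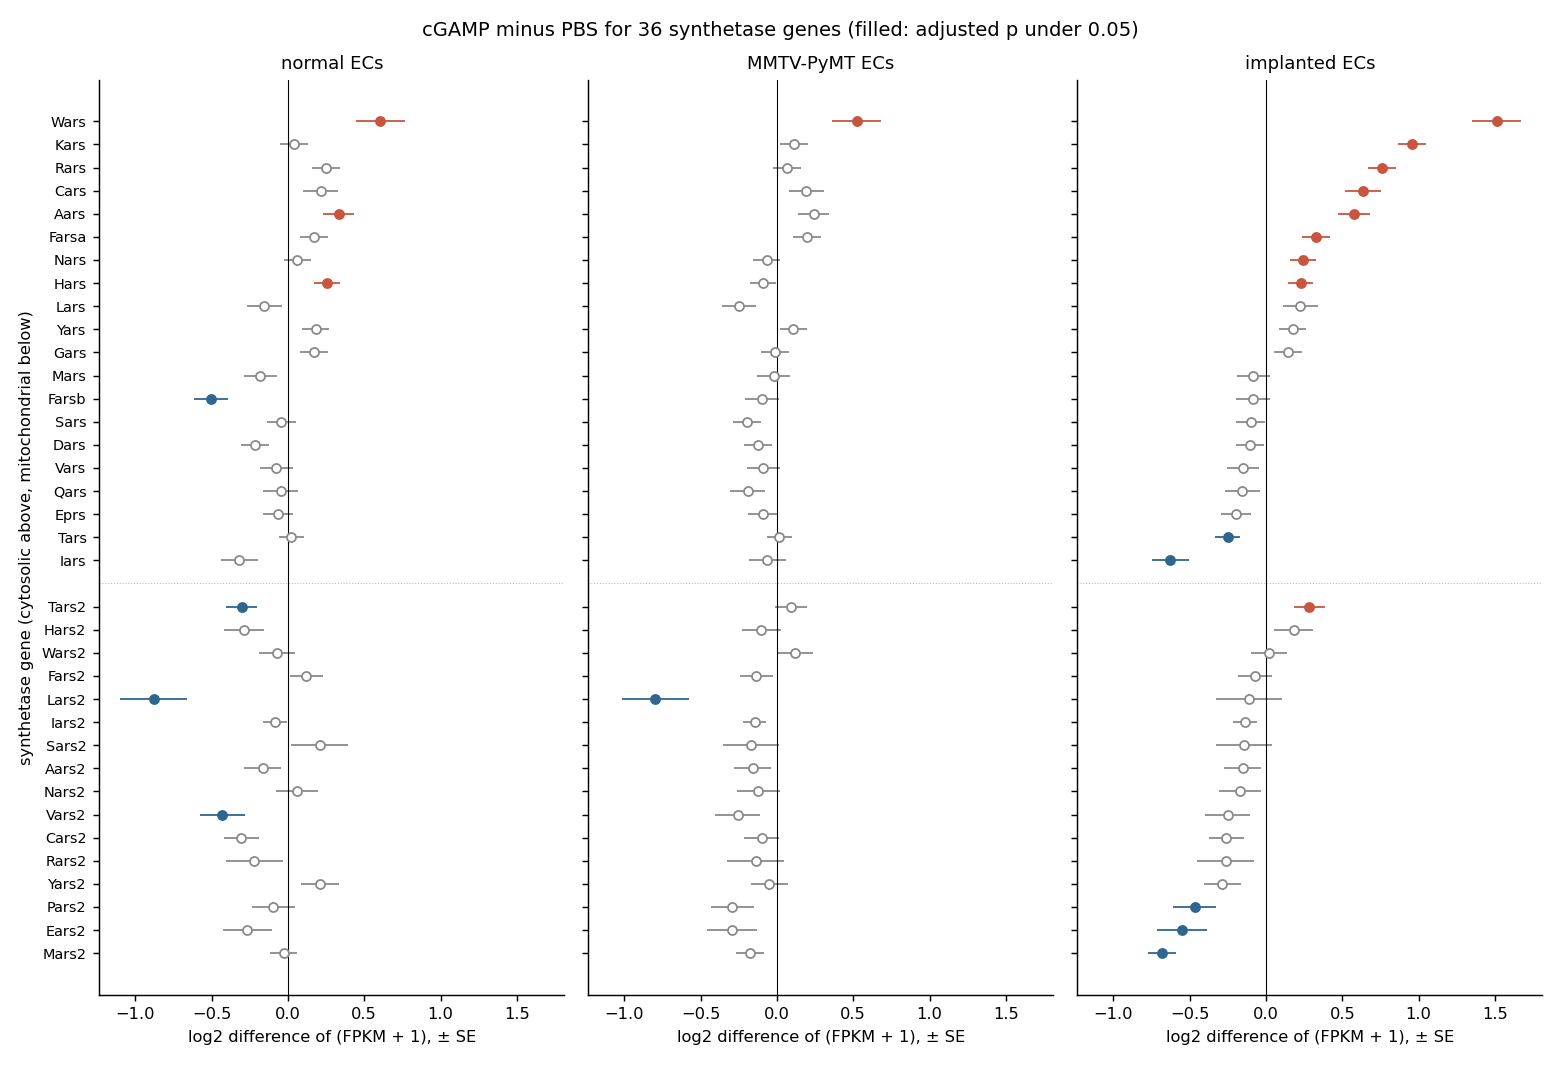
Difference between cGAMP and PBS on the log2(FPKM + 1) scale (x axis) of the 36 synthetase genes (y axis) in each tissue; points are estimates, bars are SE, and filled points have an adjusted p under 0.05. Implanted ECs have 14 filled points, normal ECs 7 and MMTV-PyMT ECs 2, and Wars is filled in each.

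In normal ECs, cGAMP raised 3 synthetase genes and lowered 4, against a background of 13.7% of tested genes higher and 18.2% lower. By total reads 2 were higher and 5 lower. Wars rose by 0.60 (SE 0.16, adjusted p = 0.00927) from a mean of 34.8 to 53.4 FPKM. Aars went from 5.89, 6.69 and 6.13 FPKM to 7.73, 9.98 and 6.86, a rise of 0.33 (adjusted p = 0.0216), and Hars rose by 0.25 (adjusted p = 0.0319). Both Aars and Hars had every cGAMP library above every PBS library. Their calls depended on single libraries, since without the second cGAMP library the difference was 0.20 for Aars (adjusted p = 0.112) and 0.18 for Hars (adjusted p = 0.144).

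Farsb, the other subunit of the phenylalanyl enzyme, fell in normal ECs, from 15.7, 15.5 and 17.8 FPKM to 11.7, 10.6 and 11.2 (-0.51, SE 0.11, adjusted p = 0.00269). Its cGAMP and PBS libraries did not overlap, and it stayed past the threshold under all 26 alternative settings. The exons of Farsb share 9.47% of their length with Sgpp2 on the other strand, and whether reads were counted by strand was not stated. The other 3 genes that fell were mitochondrial. Vars2, for valine, fell by 0.43 (adjusted p = 0.0376) and Tars2 by 0.30 (adjusted p = 0.0338), and each lost its call when single libraries were left out, with an adjusted p of up to 0.127 and 0.109. Leaving out the first PBS library left 3 calls in normal ECs and leaving out the third PBS library left 4, against 7.

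Lars2, the mitochondrial leucyl enzyme, showed the largest fall in normal ECs, by 0.88 (SE 0.22, adjusted p = 0.00607). Its FPKM was 8.45, 7.24 and 3.08 under PBS and 3.38, 2.53 and 2.29 under cGAMP. The third PBS library was far below the other two and overlapped the cGAMP libraries, and without it the fall was 1.25 (adjusted p = 1.01e-05). The call was lost when only the libraries compared were fitted (-0.88, adjusted p = 0.0571). In MMTV-PyMT ECs Lars2 went from 11.1, 13.6 and 12.3 FPKM to 6.60, 6.23 and 7.19, with no overlap, a fall of 0.80 (SE 0.22, adjusted p = 0.0251). That call was lost when library 2 or 3 of either injection was left out (adjusted p = 0.0550 to 0.0983). In implanted ECs Lars2 had 4.78, 5.58 and 4.80 FPKM under PBS and 4.45, 5.14 and 4.21 under cGAMP, which overlapped and did not pass the test.

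Another entry of the table moved with Lars2 in normal and MMTV-PyMT ECs, and it was picked after its values were seen. Mir6236, annotated as a microRNA gene, had 38.6, 36.3 and 5.25 FPKM in normal ECs under PBS, low in the same PBS library, and 7.10, 7.23 and 3.74 under cGAMP. These values came from few reads, 56, 53 and 7 under PBS and 10, 10 and 5 under cGAMP. In MMTV-PyMT ECs Mir6236 went from 42.9, 55.5 and 42.9 to 14.3, 12.2 and 13.8 FPKM. In implanted ECs it had 39.2, 56.0 and 27.2 FPKM under PBS and 23.3, 31.9 and 18.5 under cGAMP, with overlap. Under PBS, Lars2 was lower in implanted than in MMTV-PyMT ECs, whereas Mir6236 did not differ past the threshold (-0.25, adjusted p = 0.706). On the log2 scale, its Pearson correlation with Lars2 over the 18 libraries was 0.762, whereas that of the ribosomal entries Gm42418, Gm26917, mt-Rnr1 and mt-Rnr2 with Lars2 lay between -0.095 and -0.034. Its part in the Lars2 result was not tested.

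In MMTV-PyMT ECs, cGAMP changed Wars and Lars2 and no other member past the threshold, against a background of 7.42% of tested genes higher and 4.57% lower. By total reads 5 members were lower and Wars did not pass (0.39, adjusted p = 0.0508), and 1 was higher and 2 lower with quantile normalization. Wars rose by 0.52 (SE 0.16, adjusted p = 0.0448), a 1.47-fold difference of mean FPKM. This call was close to the threshold and held under 11 of 26 alternative settings, with an adjusted p from 0.00255 to 0.166. The other 34 members had differences between -0.30 and 0.24.

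Whether the cGAMP effect itself differed between tissues was tested as an interaction. Comparisons of the implanted tissue with MMTV-PyMT and with normal ECs share the implanted libraries, so they are not independent. The effect in implanted ECs was higher than in MMTV-PyMT ECs for 3 members and lower for 2, against 7.34% of tested genes higher and 3.72% lower. The difference of effects was 0.99 (SE 0.23, adjusted p = 0.00923) for Wars, 0.85 (SE 0.13, adjusted p = 0.000786) for Kars and 0.70 (SE 0.13, adjusted p = 0.00284) for Rars. For Mars2 it was -0.51 (adjusted p = 0.0173) and for Iars -0.56 (adjusted p = 0.0449). The Iars difference lost its call when any of 14 single libraries was left out, among them the first implanted cGAMP library (-0.47, adjusted p = 0.0981). In MMTV-PyMT ECs, Kars had 24.0, 27.3 and 25.2 FPKM under PBS and 28.2, 25.7 and 28.9 under cGAMP, and Rars had 18.5, 18.4 and 16.8 and then 19.9, 17.1 and 19.3, with overlap in each gene.

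Against normal ECs, the effect in implanted ECs was higher for 4 members and lower for 1, against 12.5% of tested genes higher and 6.09% lower. By total reads 2 were higher and 5 lower, and 2 were higher and 3 lower with quantile normalization. The difference of effects was 0.92 for Kars (SE 0.13, adjusted p = 0.000205), 0.91 for Wars (SE 0.23, adjusted p = 0.0103), 0.59 for Tars2 (SE 0.15, adjusted p = 0.00987) and 0.51 for Rars (SE 0.13, adjusted p = 0.0130), and -0.65 for Mars2 (SE 0.13, adjusted p = 0.00227). Tars2 fell in normal ECs, from 3.26, 2.97 and 3.25 to 2.37, 2.18 and 2.58 FPKM, and went from 4.45, 3.47 and 3.18 to 5.18, 4.56 and 4.35 FPKM in implanted ECs. Between MMTV-PyMT and normal ECs, limma found 0 members with a different effect (3 at an unadjusted p under 0.05, and 0 past the threshold with voom on recovered reads), against 5.48% of tested genes higher and 2.90% lower. The difference for Wars there was -0.08 (SE 0.23, adjusted p = 0.868), which does not show that the effects were alike.

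Genes of the multi-synthetase complex differed in direction in implanted ECs, in shares near the background of 20.3% higher and 18.8% lower. Of its 8 enzyme genes, Kars and Rars rose and Iars fell, and Dars, Eprs, Lars, Mars and Qars did not pass the test. Of 7 genes for non-enzyme parts of the complex and for the elongation factor that partners the valyl enzyme, 1 fell, namely Aimp2, a scaffold protein, from 8.48, 8.74 and 7.53 to 3.54, 6.47 and 4.66 FPKM (-0.68, SE 0.15, adjusted p = 0.00173). In normal ECs limma called 0 of the 8 enzymes (3 at an unadjusted p under 0.05), against 13.7% of tested genes higher and 18.2% lower. Of the 7 others, Eef1d fell there (-0.37, adjusted p = 0.0103). The subunits of the phenylalanyl enzyme, which work together, passed the threshold in different tissues. Farsa rose in implanted ECs, though by total reads only by 0.044 (adjusted p = 0.690), with Farsb at -0.09. Farsb fell in normal ECs with Farsa at 0.17, and neither second value was past the threshold. No test compared Farsa with Farsb.

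Against the 20.3% of tested genes higher and 18.8% lower with cGAMP in implanted ECs, 4 of the 13 members reported as ATF4 targets rose and 2 fell there, and the 4 of the 7 other cytosolic members that passed the threshold all rose. Atf4 itself went from 40.4, 37.8 and 37.3 to 66.1, 49.9 and 51.7 FPKM in implanted ECs (0.52, adjusted p = 0.000428) and from 36.8, 34.9 and 38.7 to 69.0, 67.0 and 60.2 in normal ECs (0.81, adjusted p = 1.32e-05). In both tissues every cGAMP library lay above every PBS library. Of 25 genes of the integrated stress response, normal ECs had 11 higher and 4 lower with cGAMP, MMTV-PyMT ECs 6 higher and 1 lower, and implanted ECs 5 in each direction. The background was 13.7% higher and 18.2% lower in normal, 7.42% and 4.57% in MMTV-PyMT, and 20.3% and 18.8% in implanted ECs, so in implanted ECs the list had a share near that of all genes. The largest changes in implanted ECs were Nupr1, a stress-induced regulator (2.93), Eif2ak2, the double-stranded RNA sensing kinase PKR (2.56), and Slc7a5 (-0.85) and Slc3a2 (0.65), the parts of a transporter of large neutral amino acids.

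Interferon targets rose beside Wars. Of 9 tested genes of tryptophan breakdown or interferon response, all 9 passed the threshold upwards in implanted ECs, and 8 in each other tissue. The background was 20.3% of tested genes higher in implanted, 13.7% in normal and 7.42% in MMTV-PyMT ECs. Ido1 was the only tested gene of tryptophan breakdown, since Ido2, Kynu and Kmo had no entry. In normal, MMTV-PyMT and implanted ECs, in this order, Cxcl10, a chemokine, rose by 7.67, 7.73 and 6.07, Ifit1 by 6.58, 7.16 and 5.32, and Isg15 by 4.68, 5.46 and 4.15. The effect on Cxcl10 was lower in implanted than in MMTV-PyMT ECs (-1.66, adjusted p = 0.00251), whereas that on Wars was higher. Ido1, which breaks down tryptophan, had 1.64, 0.743 and 1.22 FPKM under PBS and 15.9, 8.86 and 11.5 under cGAMP in implanted ECs, with no overlap. Its effect was higher there than in MMTV-PyMT ECs by 2.701 (SE 0.39, adjusted p = 0.000403).

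The 5 genes outside the family whose pattern over the 18 libraries was most like that of Wars were Gsdmd (Pearson correlation 0.979), Sema3a (0.975), H2-Q6 (0.973), Myo5a (0.972) and Ms4a4d (0.969). These are correlations of log2(FPKM + 1), the libraries fall into 6 groups, and H2-Q6 belongs to a family with near-identical copies among which reads may be split. Gsdmd, the pore-forming protein of pyroptosis, had 2.57, 2.48 and 1.99 FPKM in MMTV-PyMT ECs under PBS and 30.3, 22.6 and 21.3 in implanted ECs under cGAMP. Those are the groups in which Wars was lowest and highest.

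Genes of mitochondrial translation outside the family were set beside the mitochondrial synthetases. Of 13 tested genes, 6 fell and 1 rose in normal ECs, 1 fell in MMTV-PyMT ECs, and 5 fell in implanted ECs, where 18.2%, 4.57% and 18.8% of all tested genes were lower. The largest changes in implanted ECs were those of the mitochondrial ribosomal proteins Mrpl12 (-0.76) and Mrps12 (-0.72), the elongation factor Tufm (-0.53) and the formyltransferase Mtfmt (-0.50). The summed FPKM of the 16 mitochondrial synthetases was 47.3, 47.1 and 41.1 under PBS and 38.7, 37.2 and 37.0 under cGAMP in normal ECs, 56.8, 59.3 and 58.2 and then 48.6, 44.0 and 50.3 in MMTV-PyMT ECs, and 49.4, 45.5 and 43.1 and then 38.5, 42.2 and 41.2 in implanted ECs. The cGAMP sums lay below the PBS sums in each tissue without overlap. Lars2 held 13.6% of the sum under PBS and 7.25% under cGAMP in normal ECs, and 21.2% and 14.0% in MMTV-PyMT ECs. Without Lars2 the sums were 38.0 to 39.8 and then 34.7 to 35.3 FPKM in normal ECs, 45.7 to 45.9 and then 37.8 to 43.1 in MMTV-PyMT ECs, and 38.3 to 44.7 and then 34.1 to 37.0 in implanted ECs, still without overlap. In normal, MMTV-PyMT and implanted ECs, 3, 1 and 3 of the 16 genes fell past the threshold.

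Without cGAMP, tumour ECs had more cytosolic synthetase mRNA than normal ECs. The summed FPKM of the 20 cytosolic genes was 247, 252 and 251 in normal, 331, 349 and 341 in MMTV-PyMT and 363, 339 and 327 in implanted ECs under PBS. All tumour libraries lay above all normal libraries, and the tumour types overlapped. In MMTV-PyMT against normal ECs, 21 members were higher and 1, Wars, was lower, against 29.8% of tested genes higher and 26.6% lower. In implanted against normal ECs, all 16 members past the threshold were higher, against 25.0% higher and 23.6% lower. By total reads 13 were higher and 1 lower there, and Farsa, Gars and Hars lost their calls. The median of the 20 cytosolic members there was 0.45 as deposited and 0.27 by total reads. In MMTV-PyMT against normal ECs, 20 were higher and 1 lower by total reads. These comparisons share the normal PBS libraries.

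The largest difference between MMTV-PyMT and normal ECs was that of Sars, the seryl enzyme, with 27.3, 29.3 and 30.6 against 13.5, 15.0 and 13.3 FPKM (1.01, SE 0.09, adjusted p = 3.09e-07). Aars followed with 13.0, 13.7 and 13.4 against 5.89, 6.69 and 6.13 FPKM (0.99, SE 0.10, adjusted p = 9.06e-07), and then Qars, the glutaminyl enzyme, with 19.4, 22.7 and 21.3 against 11.0, 11.0 and 9.66 FPKM (0.94, SE 0.11, adjusted p = 5.25e-06). In each of these genes the tumour libraries lay far above the normal libraries. Lars2 was higher by 0.96 (adjusted p = 0.00142), but by 0.59 (adjusted p = 0.00162) without the third normal PBS library. Hars (0.81), Lars (0.79), Nars (0.73) and Vars (0.73) completed the 8 largest, and 13 further members were higher by 0.30 to 0.72. Among these 13, the calls of Gars, Mars and Yars2 were lost when single libraries were left out. Wars was lower by 0.98 (SE 0.16, adjusted p = 8.72e-05), with no overlap.

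Against normal ECs, implanted ECs had more Sars (26.2, 24.9 and 24.5 FPKM, a difference of 0.81, SE 0.09, adjusted p = 3.08e-06) and more Wars (0.76, SE 0.16, adjusted p = 0.00101). Sars2, the mitochondrial seryl enzyme, was higher by 0.68, Yars, the tyrosyl enzyme, by 0.53, Cars by 0.52, Aars by 0.50 and Qars and Vars by 0.49. The other 8 were higher by 0.23 to 0.49, of which Gars (adjusted p = 0.0495) held its call in 9 of 26 alternative settings. All 16 had every implanted library above every normal library. How many of all tested genes separate in this way was not counted, so this shows nothing particular to the family.

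Between the tumour types under PBS, 4 members were higher and 7 lower in implanted than in MMTV-PyMT ECs, against 20.8% of tested genes higher and 24.6% lower. Wars was higher by 1.74 (SE 0.16, adjusted p = 8.51e-07), a 3.48-fold difference of mean FPKM and the largest difference of any member in any comparison. Cars (0.53), Tars2 (0.38) and Mars2 (0.29) were also higher. Lars2 was lower by 1.14 (SE 0.22, adjusted p = 0.000580), Lars by 0.66, Hars and Aars by 0.50, Qars by 0.44, Iars2 by 0.36 and Nars by 0.28. Iars2 shares 22.9% of its exon length with Rab3gap2 on the other strand, and whether reads were counted by strand was not stated. In limma, Rab3gap2 was higher in this comparison (0.44, adjusted p = 0.00193). Mars2 lost its call without the second implanted PBS library (0.27, adjusted p = 0.0583) or the third MMTV-PyMT PBS library (0.28, adjusted p = 0.0511), and Nars without the first MMTV-PyMT PBS library (-0.25, adjusted p = 0.0527). None of these 11 members overlapped between the groups, and the share of all tested genes without overlap was not counted. With scaling by total reads, 3 members were higher and 17 lower.

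Other lists moved with the tissues as well. Of all tested genes under PBS, 29.8% were higher and 26.6% lower in MMTV-PyMT than in normal ECs. These shares were 25.0% and 23.6% in implanted against normal ECs, and 20.8% and 24.6% in implanted against MMTV-PyMT ECs. The summed level of 8 epithelial markers was 322 to 410 FPKM in normal, 892 to 1012 in MMTV-PyMT and 384 to 546 in implanted ECs under PBS, and 6 of the 8 were higher in MMTV-PyMT than in normal ECs. The summed level of 8 genes of cycling cells was 48.5 to 54.5, 88.7 to 97.0 and 77.4 to 95.4 FPKM, and all 8 were higher in MMTV-PyMT and 7 in implanted than in normal ECs. Of the 25 genes of the integrated stress response, 11 were higher and 3 lower in each tumour type than in normal ECs, led by Slc7a5 (2.53) and Psat1, of serine synthesis (2.16), in MMTV-PyMT ECs. Of the 9 interferon or tryptophan genes, 8 were higher in implanted than in MMTV-PyMT ECs under PBS, like Wars, with Cxcl9 higher by 6.24. The part of epithelial RNA and of cycling cells in the synthetase differences was not tested.

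**Figure D3:**
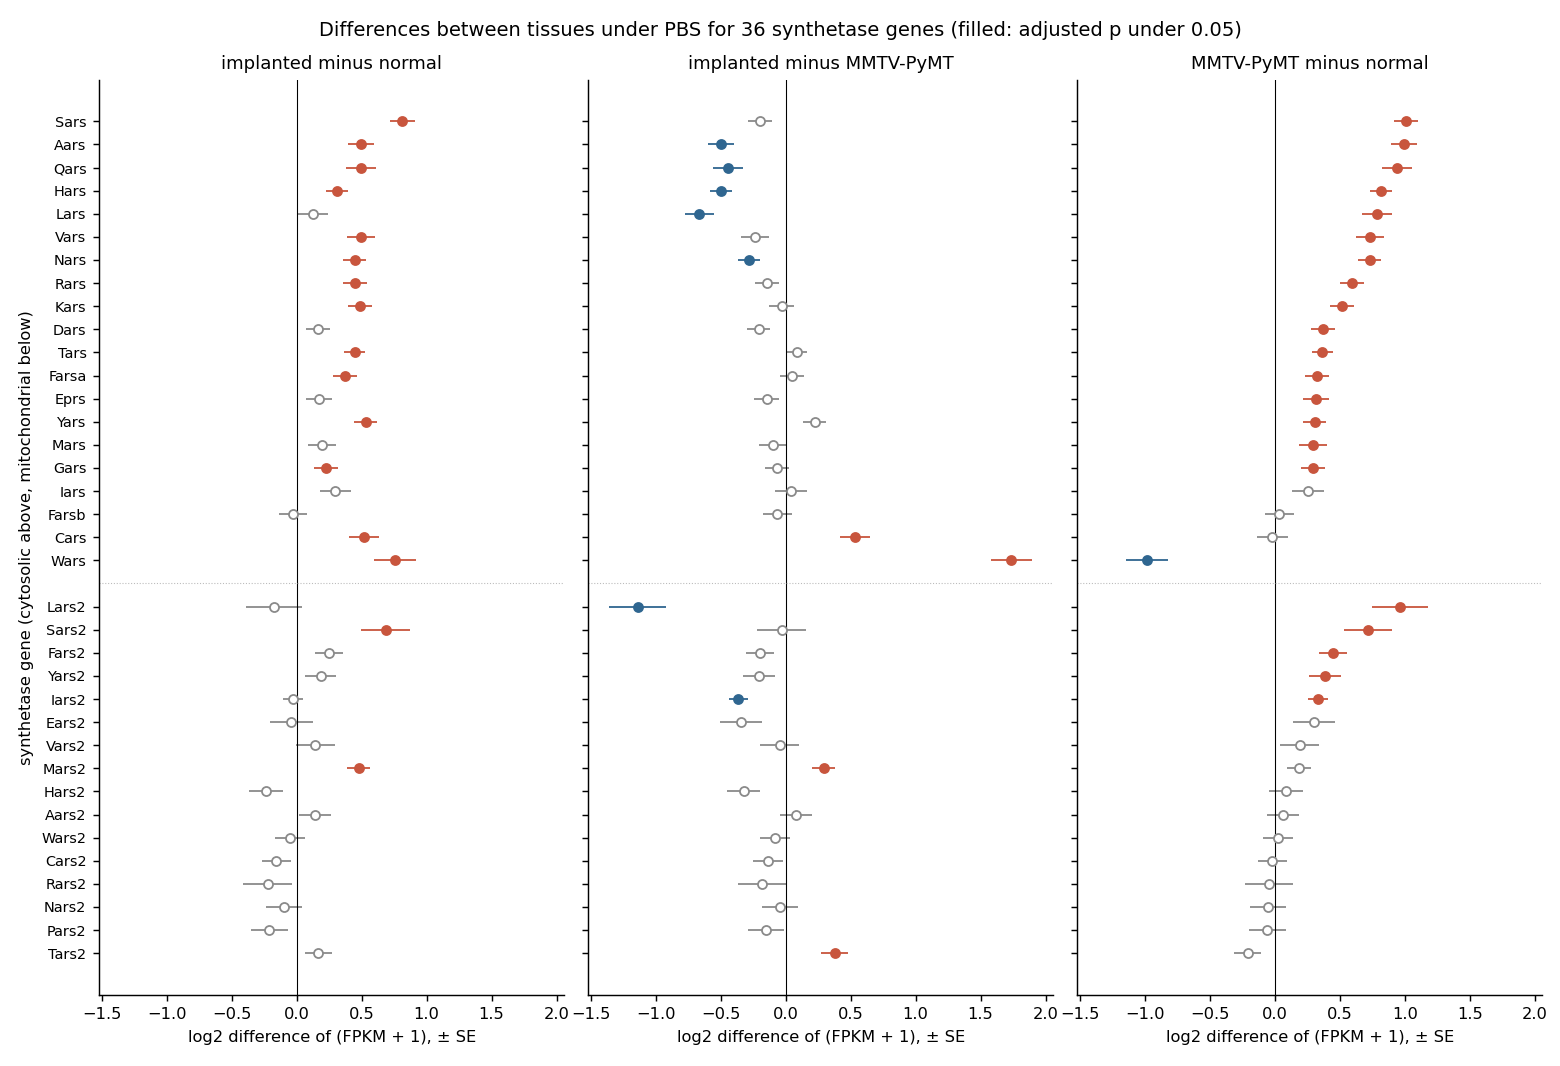
Differences between tissues under PBS on the log2(FPKM + 1) scale (x axis) of the 36 synthetase genes (y axis); points are estimates, bars are SE, and filled points have an adjusted p under 0.05. Filled points lie to the right in both comparisons with normal ECs except Wars, which is at -0.98 in MMTV-PyMT against normal ECs, and 7 of the 11 filled points lie to the left in implanted against MMTV-PyMT ECs.

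**Figure D4:**
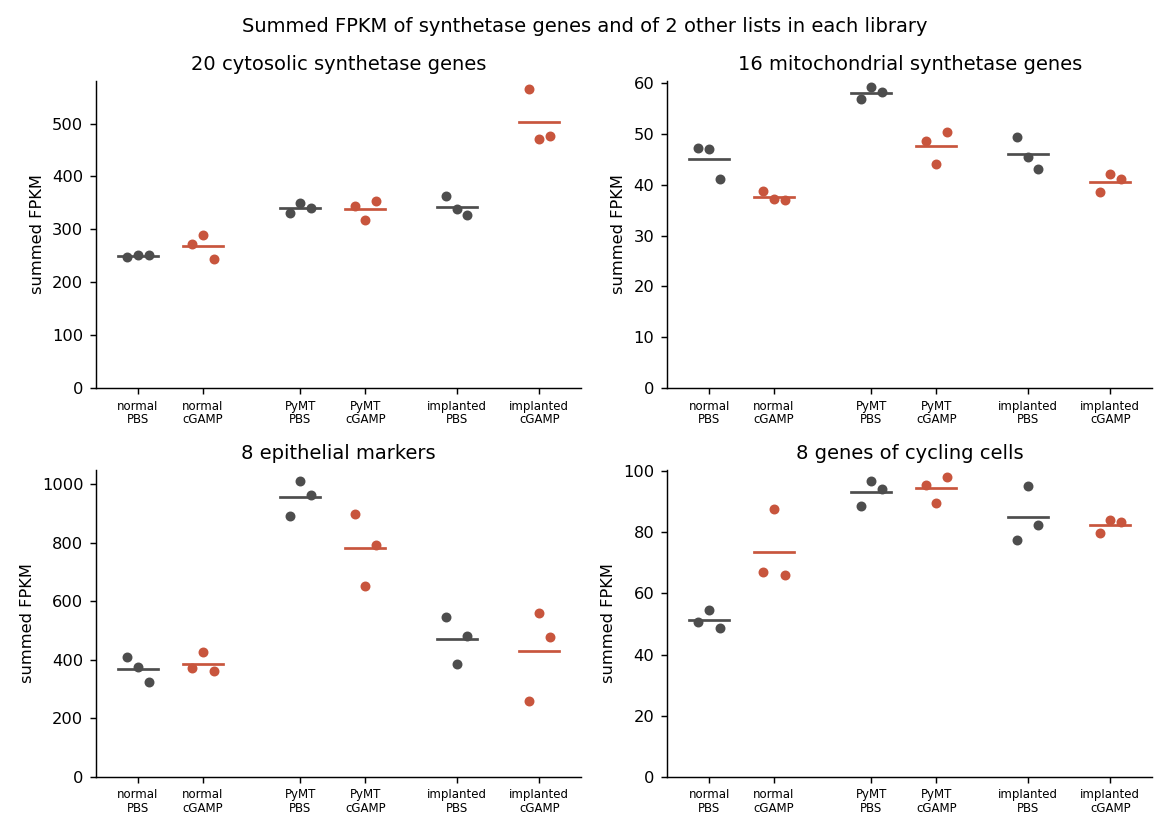
Summed FPKM (y axis, linear, from 0) of the cytosolic and mitochondrial synthetase genes, of 8 epithelial markers and of 8 genes of cycling cells in each library, by tissue and injection (x axis); points are libraries and bars are means of 3. The cytosolic sum is highest under cGAMP in implanted ECs, and the mitochondrial and epithelial sums are highest under PBS in MMTV-PyMT ECs.

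Within the family, levels of cytosolic genes went together more than those of mitochondrial genes. Over the 18 libraries, the Pearson correlation of log2(FPKM + 1) had a median of 0.601 among 190 cytosolic pairs and of 0.260 among 120 mitochondrial pairs. The pairs share libraries and scaling, and the mitochondrial genes had fewer reads. Several members share a start region with another gene on the other strand. Terf2ip starts 75 bases from Kars and Wdr25 overlaps the start of Wars, and neither passed the test with cGAMP in any tissue. Ubfd1, beside Ears2, fell in implanted ECs (-0.77) as Ears2 did, and in normal ECs (-0.67), where Ears2 did not pass, and Mrps12, beside Sars2, fell there and in normal ECs. Hars and Hars2 overlap at their starts, so reads of the shared 195 exonic bases cannot be told apart without strand.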

How the data were processed

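The 36 synthetase genes, the other gene lists and the motifs were chosen with earlier results of these data known. The study's methods give a directional library kit, alignment with STAR 2.7 to mm10 and counting with HTSeq; whether counting used the strand was not stated. The authors deposited 1 table of FPKM values. Within each gene these were whole multiples of 1 step, so whole reads were recovered for 16248 genes (100%, within 0.05 of a whole number), of which 15772 had the exon length of GENCODE M21. Read totals cover counting error only, since reads had no molecular identifiers. Of the 18 columns, 12 name a tumour type, and the other 6, which carry only the injection and a number, were taken as normal fat pad because each tumour type had its own columns. Columns without a matched sample numbered 0.

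Tested genes (13983) reached an FPKM of 1 in 3 or more libraries. A linear model with 1 mean per group over all 18 libraries was fitted to log2(FPKM + 1) with limma 3.58.1 (lmFit, then eBayes with a trend; 2-sided) under R 4.3.3, with Benjamini-Hochberg adjustment over the tested genes. The 9 comparisons were the cGAMP effect per tissue, its differences between tissues, and the tissues under PBS. The fit was tested on simulated data. Replicate pairs differed by more than sampling noise (chi-square per gene 4.10 to 31.6), so each library counts as 1 replicate. Per comparison the text names up to 8 members with the largest rise and 8 with the largest fall past the threshold, and Wars throughout. It also names up to 4 genes of each other list, the 5 genes most correlated with Wars and neighbours whose starts lie within 1000 bases. Mir6236, the ribosomal entries, Sgpp2, Rab3gap2, Tarsl2 and the cell type levels given were chosen after values were seen. Alternatives were another pseudocount (0.1), no filter on low values, a mean FPKM of at least 5, scaling by total reads, quantile normalization, voom on recovered reads, a fit of only the libraries compared, a replicate block and leaving out each library.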

Additional observations from a re-analysis of the deposited data

Results flagged for a closer look

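The effect of cGAMP on 6 synthetase genes differed between tissues in the interaction test of limma, with groups of 3 libraries. For implanted minus MMTV-PyMT ECs, 8.33% of members were higher and 5.56% lower, against 7.34% and 3.72% of all tested genes. For implanted minus normal ECs these shares were 11.1% and 2.78%, against 12.5% and 6.09%. The share of the family was thus near that of other genes. In implanted minus MMTV-PyMT ECs the difference of the effects was 0.99 for Wars (adjusted p = 0.00923), 0.85 for Kars (adjusted p = 0.000786), 0.70 for Rars (adjusted p = 0.00284), -0.51 for Mars2 (adjusted p = 0.0173) and -0.56 for Iars (adjusted p = 0.0449). In implanted minus normal ECs, which shares the implanted libraries, it was 0.92 for Kars (adjusted p = 0.000205), 0.91 for Wars (adjusted p = 0.0103), 0.59 for Tars2 (adjusted p = 0.00987), 0.51 for Rars (adjusted p = 0.0130) and -0.65 for Mars2 (adjusted p = 0.00227). Without the first implanted cGAMP library the Wars values were 0.74 and 0.66 and the Kars values 0.77 and 0.84, and all 4 stayed past the threshold. With quantile normalization the Wars values were 0.58 (adjusted p = 0.0507) and 0.49 (adjusted p = 0.0709), and by total reads the Rars value against normal ECs was 0.21 (adjusted p = 0.267) and the Tars2 value 0.34 (adjusted p = 0.0888). A formal outlier test of a library within its group was not run, since it needs at least 4 libraries.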

How the results depend on the processing

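Counts of members past the threshold stayed within 1.5 times except as follows. For cGAMP in implanted ECs (14) the count was 25 by total reads, 8 with only the libraries compared and 9 at a mean FPKM of at least 5; the last 2 settings use fewer libraries or test fewer genes. In MMTV-PyMT ECs (2) it was 5 by total reads and 1 with the replicate block. For the effect in implanted minus normal ECs (5) it was 3 at a mean FPKM of 5 or more, and for MMTV-PyMT minus normal ECs (0) it was 1 by total reads and 1 with quantile normalization. For implanted minus MMTV-PyMT ECs under PBS (11) it was 20 by total reads. Leaving out a library gave 3 to 9 in normal, 0 to 2 in MMTV-PyMT and 9 to 15 in implanted ECs under cGAMP, 4 to 6, 5 to 7 and 0 to 1 for the effect in implanted minus MMTV-PyMT, implanted minus normal and MMTV-PyMT minus normal ECs, and 10 to 14, 15 to 17 and 19 to 23 for implanted minus MMTV-PyMT, implanted minus normal and MMTV-PyMT minus normal ECs under PBS. The MMTV-PyMT count was 0 without library 2 or 3 of either injection, and 1 without any of 9 other libraries. The MMTV-PyMT minus normal count was 1 without the first implanted cGAMP or the second MMTV-PyMT cGAMP library.

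Directions turned for Hars (-0.071) and Nars (-0.065) in implanted ECs by total reads, for Nars (-0.073) with quantile normalization, and for the Wars effect in MMTV-PyMT minus normal ECs, never past the threshold, which ran from -0.14 to 0.034 when single libraries were left out, above 0 only without the first MMTV-PyMT cGAMP library. Of 83 values, those of members past the threshold and of Wars in every comparison, 55 lost no call under any setting. Both numbers include that Wars effect in MMTV-PyMT minus normal ECs, which had no call to lose. By total reads the median of all genes moved by over 0.1 in 6 comparisons. The cause of these changes was not tested. The replicate numbers did not pair the libraries (45 same-numbered pairs, correlations of their deviations -0.345 to 0.294, 8 above 0.1; 4 of 18 libraries were closest to their own number), and the block changed no other count by over 1.5 times. Genes at a few reads, such as Pars2 and Ears2, are limited by depth.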
